A study of Homo sapiens with 6 samples.

Results

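Heat shock proteins and DNAJ proteins form the machinery that folds, unfolds and sorts other proteins. The genes described here are those whose symbol begins with HSPA, HSPB, HSPD, HSPE, HSPH, HSP90, DNAJA, DNAJB or DNAJC, followed by digits or capital letters with no hyphen, and 79 of the 26485 symbols in the count tables fit that rule. They were chosen by a rule on names, though with earlier results of these data known. The samples were 6 RNA-seq libraries of AF22, an established human neural stem cell line that was made from induced pluripotent cells. The labels give 3 libraries the genotype COMMD3/COMMD3-BMI1 knockdown and 3 control libraries, called shControl, the genotype WT. The labels do not describe the knockdown reagent, name no time point and do not say whether replicates were separate cultures, and the spread that the p-values are set against may be technical.

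HSP70 proteins bind and release unfolded stretches of their clients as they hydrolyse ATP. DNAJ proteins, also called J proteins, bring clients to HSP70 and speed up the hydrolysis, and HSP110 proteins exchange its nucleotide. HSP90 acts on partly folded kinases and receptors, small heat shock proteins hold unfolded chains, and HSP60 with HSP10 folds proteins inside mitochondria. Each compartment has its own set. In the endoplasmic reticulum (ER) the set is led by the HSP70 HSPA5 (BiP) and the HSP90 HSP90B1 (GRP94), which the unfolded protein response raises. In the cytosol, heat shock factor 1 raises a set that includes HSPA1A, HSPA8, HSPH1, HSP90AA1 and DNAJB1.

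Knockdown libraries held 8574066 to 9692967 counts and control libraries 7294687 to 11579849, and the 79 genes took between 0.837% and 0.845% of the counts in knockdown libraries and between 0.815% and 0.835% in control libraries. COMMD3, the targeted gene, had 12.9, 11.3 and 10.49 CPM (counts-per-million) in knockdown libraries and 31.7, 29.7 and 27.6 CPM in control libraries by the scaling used throughout (3 libraries each, log2 fold change −1.37, adjusted p in edgeR = 2.34e-12). BMI1 had a log2 fold change of −0.075 (adjusted p in edgeR = 0.206) and COMMD3-BMI1 was listed at 0 in all 6 libraries. All 10 neural stem cell markers checked were detected, from PAX6 at 20.9 CPM in knockdown and 23.3 CPM in control to VIM at 1187 CPM in knockdown and 1150 CPM in control. Of these markers 3 were lower in knockdown (SOX2, HES1 and PROM1, with log2 fold changes of −0.147, −0.304 and −0.26), 1 was higher (MSI1, 0.134) and 6 did not pass (median log2 fold change −0.146). STMN2 (neurons), GFAP (astrocytes), TDGF1 (pluripotent cells) and CD3E (leukocytes) were at 0. The summed markers of other types were 502.5 to 518.1 CPM in knockdown and 535.1 to 578 CPM in control for 6 neuron genes, nearly all of it MAP2. They were 145.9 to 150.7 against 166.2 to 173.5 CPM for 6 glial genes and 635.1 to 693.2 against 531.3 to 535.5 CPM for 5 pluripotency genes. Of the pluripotency genes, LIN28A was higher (456.8 CPM in knockdown, 303.6 CPM in control), POU5F1 lower (45.7 CPM in knockdown, 59.1 CPM in control) and DPPA4 did not pass (169.9 CPM in knockdown, 171.3 CPM in control). For 6 leukocyte and fibroblast genes they were 74.3 to 92.0 against 64.75 to 73.1 CPM. Their part in the results that follow was not tested, and in bulk RNA fewer cells of a type and less RNA per cell cannot be told apart.

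Across the family, most transcripts differed little between knockdown and control cells. Of the 79 genes, 60 were expressed enough to be tested, of which 8 were higher and 6 lower in knockdown cells by the quasi-likelihood test of edgeR (Benjamini-Hochberg adjusted p under 0.05 over all tested genes). That is 23.3% of the 60, where 33.3% of all 13632 tested genes were called, 15.3% higher and 18.1% lower. None of the 14 called genes changed 1.5-fold or more, while 668 of all 4545 called genes did. The median log2 fold change was 0.03 over the 60 genes and 0.002 over all tested genes, and the median of its size was 0.098 and 0.136. For 37 of the 60 genes the 95% interval of the fold change lay within 1.2-fold in either direction. The 3 knockdown and 3 control libraries did not overlap for 28 of the 60 genes (46.7%), where 44.3% of all tested genes did not overlap. With library-size scaling the split was 12 higher and 5 lower, and DESeq2 called 3 higher and 3 lower. Without control replicate 1 the test called 5 higher and 3 lower, and without knockdown replicate 1 it called 5 higher and 4 lower. The share of all tested genes called also differed. It was 34.4% with library-size scaling, 20.5% in DESeq2, 28.3% without control replicate 1 and 26.3% without knockdown replicate 1.

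**Figure D1:**
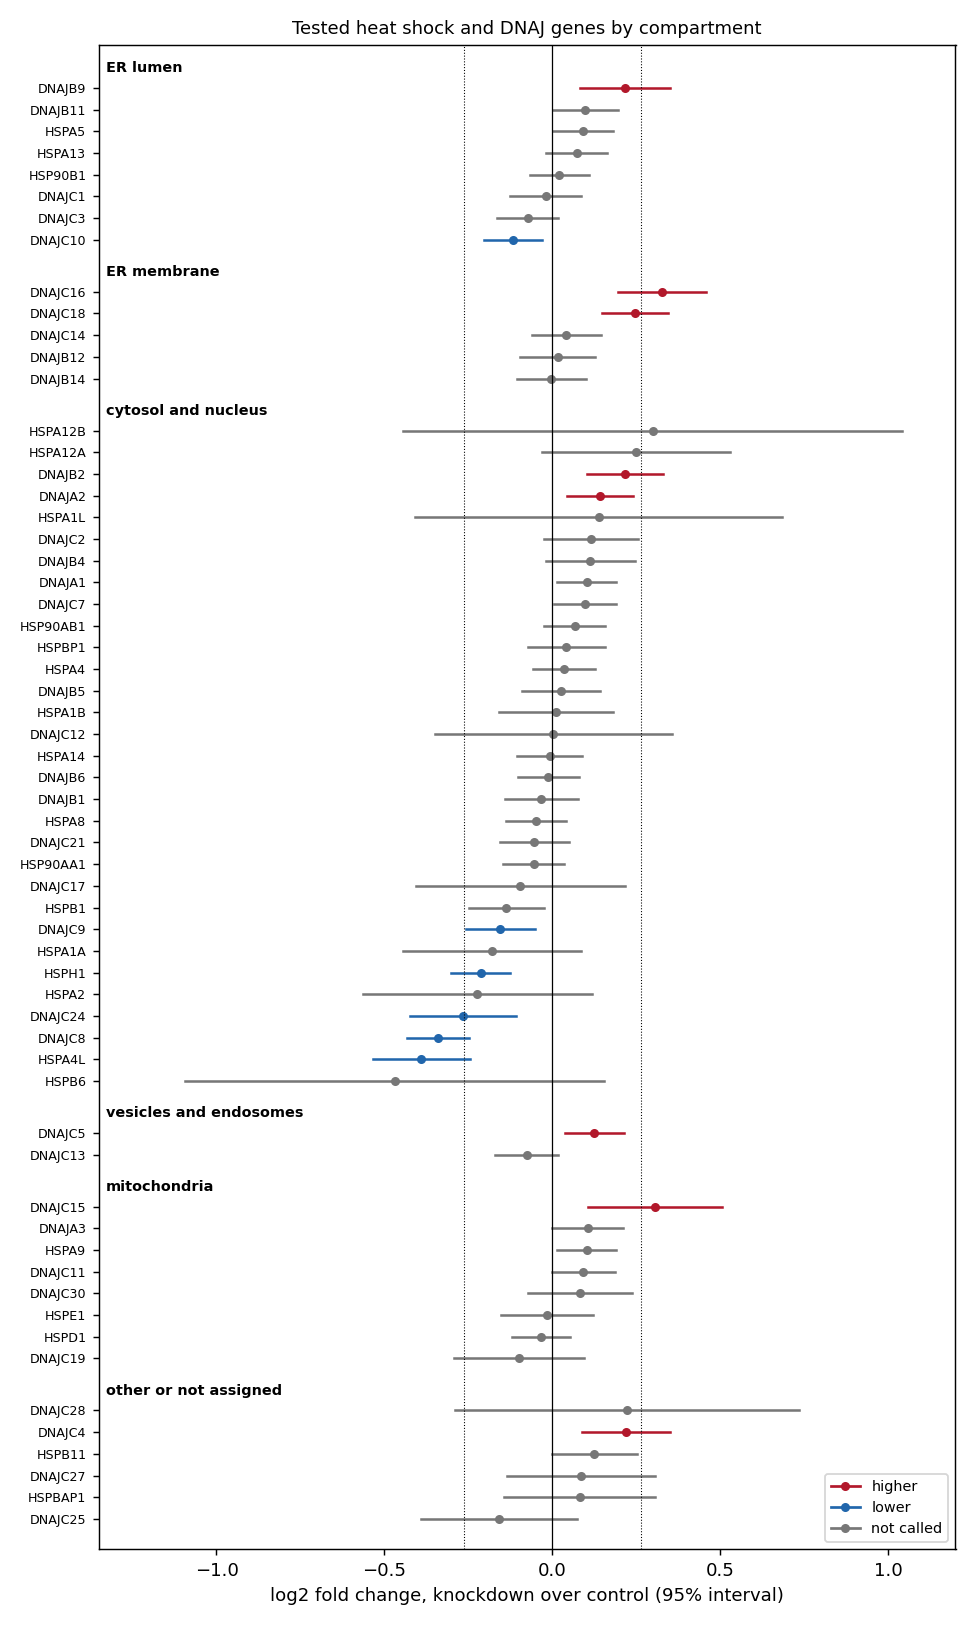
Log2 fold change (knockdown over control) of the 60 tested genes with its 95% interval on the horizontal axis, grouped by compartment, with colours for genes called higher, called lower or not called. The dotted lines mark 1.2-fold in each direction, and 37 of the 60 intervals lie between them. The widest intervals belong to genes near 1 or 2 CPM, such as HSPA12B and HSPB6, and 38.2% of the exon bases of HSPB6 lie on exons of the other strand.

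In the ER lumen, all 8 genes were tested, and 1 was higher, 1 lower and 6 did not pass. Their median log2 fold change was 0.046, with a range of −0.12 to 0.22. HSPA5, the ER HSP70 that binds nascent chains and the sensors of the unfolded protein response, had 510.4, 529.2 and 526.1 CPM in knockdown libraries and 488.7, 476.5 and 505.8 CPM in control libraries. The groups did not overlap, though knockdown replicate 1 and control replicate 3 lay close together. The log2 fold change of HSPA5 was 0.09 (95% interval 0.002 to 0.179, adjusted p in edgeR = 0.108). It passed with upper-quartile scaling (adjusted p of 0.0488), with library-size scaling (adjusted p of 0.0165) and without control replicate 3 (adjusted p of 0.0253). HSP90B1 had 669.3, 683.4 and 669.9 CPM in knockdown libraries and 678.6, 641.9 and 673.4 CPM in control libraries. These values overlapped, with a log2 fold change of 0.021 (95% interval −0.068 to 0.109, adjusted p in edgeR = 0.753), which was −0.001 without control replicate 2.

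The promoters of both genes are shown because they hold the element through which the unfolded protein response is known to act, and that of HSPA8, the constitutive cytosolic HSP70, because it holds heat shock elements instead. Each runs from 250 bases before to 50 bases after the RefSeq start site on GRCh38.p14, 5′ to 3′ on the strand of the gene. Capitals mark the ER stress element (CCAAT, 9 bases of any kind, then CCACG, on either strand) in the first pair and the heat shock element of 3 units (GAA and TTC in turn with 2 bases between, beginning with either) in HSPA8. The positions are chr9:125241294-125241593 on the minus strand for HSPA5, chr12:103930160-103930459 on the plus strand for HSP90B1, and chr11:123062087-123062386 on the minus strand for HSPA8.
HSPA5: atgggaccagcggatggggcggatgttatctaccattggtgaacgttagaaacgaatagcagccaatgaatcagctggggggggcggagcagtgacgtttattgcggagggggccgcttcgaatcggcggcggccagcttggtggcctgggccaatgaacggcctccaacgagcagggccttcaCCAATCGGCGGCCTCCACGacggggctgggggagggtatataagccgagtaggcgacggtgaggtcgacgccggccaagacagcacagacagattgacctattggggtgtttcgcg
HSP90B1: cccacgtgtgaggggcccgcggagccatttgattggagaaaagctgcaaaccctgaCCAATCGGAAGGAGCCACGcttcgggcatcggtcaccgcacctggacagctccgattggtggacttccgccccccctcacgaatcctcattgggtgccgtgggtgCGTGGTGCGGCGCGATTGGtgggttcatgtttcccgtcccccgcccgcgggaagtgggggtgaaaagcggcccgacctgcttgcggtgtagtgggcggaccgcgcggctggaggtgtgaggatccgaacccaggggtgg
HSPA8: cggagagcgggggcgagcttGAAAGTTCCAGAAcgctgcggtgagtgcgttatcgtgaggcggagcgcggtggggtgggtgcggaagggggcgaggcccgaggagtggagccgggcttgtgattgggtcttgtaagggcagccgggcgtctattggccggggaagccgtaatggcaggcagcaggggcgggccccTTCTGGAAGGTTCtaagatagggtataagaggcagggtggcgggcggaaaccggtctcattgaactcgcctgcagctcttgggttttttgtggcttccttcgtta

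HSPA5 held 1 exact match, beginning 66 bases before the start site, and HSP90B1 held 2, beginning 194 and 89 bases before it. No other ER luminal gene of the 7 with a promoter in the table held this exact element, and neither did any of the 28 tested cytosolic and nuclear genes with a promoter. Among all 27305 promoters of this length 0.0806% held it. The 14 tested genes with the element, of which 2 were called, had a median log2 fold change of −0.027. An exact match to the heat shock element of 3 units was found in the promoters of HSPA8, DNAJA1 and DNAJB6 among the tested genes of the family. Of all promoters, 0.487% held one. In HSPA8 it began 230 and 55 bases before the start site, and in DNAJA1 3 bases after it. These 3 genes did not pass, with log2 fold changes of −0.048 for HSPA8, 0.103 for DNAJA1 and −0.012 for DNAJB6. HSPA1A, HSPA1B, DNAJB1, HSPH1 and HSPB1 held no exact match. Elements with a mismatch or outside the window were not searched for, so this does not show that these genes lack the element. The shorter element known as ERSE-II (ATTGG, 1 base of any kind, then CCACG, on either strand) was found in no promoter of the 55 tested genes with one, and in 0.0549% of all promoters. Of the 79 genes, 66 had a promoter in the table.

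The J proteins of the ER lumen moved in both directions. DNAJB9 (ERdj4), which acts with HSPA5 in the degradation of misfolded proteins and in holding the sensor IRE1 inactive, had 44.7, 43.3 and 45.8 CPM in knockdown libraries and 37.3, 40.8 and 37.3 CPM in control libraries. Every knockdown library lay above every control library, and DNAJB9 rose by 0.22 on the log2 scale (SE 0.065, adjusted p in edgeR = 0.0108). It no longer passed without control replicate 1 (adjusted p of 0.0605) and in DESeq2 (adjusted p of 0.0883). DNAJC10 (ERdj5), a disulfide reductase with a J domain, had 191.2, 197.7 and 200.3 CPM in knockdown libraries and 213.1, 215.4 and 210.2 CPM in control libraries. Every knockdown library lay below every control library, and DNAJC10 fell by 0.117 on the log2 scale (SE 0.0425, adjusted p in edgeR = 0.0334). It no longer passed without knockdown replicate 1 (adjusted p of 0.171), knockdown replicate 2 (adjusted p of 0.0828), control replicate 1 (adjusted p of 0.0727) or control replicate 2 (adjusted p of 0.12), with library-size scaling (adjusted p of 0.0581) and in DESeq2 (adjusted p of 0.0819).

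The other ER luminal genes did not pass. DNAJB11 (ERdj3), a soluble J protein that hands clients to HSPA5, averaged 93.8 ± 0.685 CPM in knockdown and 87.8 ± 3.77 CPM in control (SD, n = 3 each), with log2 fold change 0.098 (95% interval 0.001 to 0.195, adjusted p in edgeR = 0.112). Of its exon bases, 15.3% are also exon bases of genes on the other strand and 7.9% of a gene on the same strand, so its counts are uncertain. HSPA13, an HSP70 of the ER without a substrate-binding domain, averaged 198.6 ± 6.26 and 188.6 ± 8.90 CPM in knockdown and control (log2 fold change 0.072, adjusted p in edgeR = 0.231). DNAJC3 (p58IPK), an HSPA5 partner also known as an inhibitor of the kinases PKR and PERK, averaged 113.1 ± 1.42 CPM in knockdown and 118.8 ± 3.92 CPM in control (log2 fold change −0.073, adjusted p in edgeR = 0.218). DNAJC1 (ERdj1), a membrane protein whose J domain faces the lumen, had a log2 fold change of −0.02 (95% interval −0.126 to 0.086).

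Of 5 genes for ER membrane proteins, 2 rose and 3 did not pass (40.0% called, against 33.3% of all tested genes). DNAJC16 had 62.2, 63.55 and 56.6 CPM in knockdown libraries and 47.5, 53.0 and 44.3 CPM in control libraries. It rose by 0.33 on the log2 scale (SE 0.064, adjusted p in edgeR = 0.000185), the largest rise among the called genes of the family. DNAJC18, whose J domain faces the cytosol, had 93.8, 90.9 and 95.7 CPM in knockdown libraries and 79.9, 80.45 and 75.5 CPM in control libraries. The groups did not overlap for either gene, and DNAJC18 rose by 0.25 on the log2 scale (SE 0.048, adjusted p in edgeR = 0.000175). Both calls held in all 15 other analyses. DNAJB12 and DNAJB14, which help the cytosolic HSP70 select membrane proteins for degradation, had log2 fold changes of 0.016 (95% interval −0.096 to 0.128) and −0.003 (95% interval −0.105 to 0.099). DNAJC14 had 0.041 (95% interval −0.062 to 0.144), and 34.9% of its exon bases are also exon bases of genes on the other strand, whose reads may not have been told apart because the strand setting of the counting is not given.

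The cytosol and nucleus held 39 of the genes, of which 31 were tested. Of these, 2 were higher, 5 lower and 24 did not pass (22.6% called, against 33.3% of all tested genes). Their median log2 fold change was −0.008, against 0.046 for the 8 ER luminal genes, and no p is given for this difference since both lists were drawn up with results of these data known. Neither cytosolic HSP90 gene passed. HSP90AA1, the inducible form, had 850.5, 849.3 and 857.1 CPM in knockdown libraries and 908.7, 855.1 and 893.6 CPM in control libraries. HSP90AB1, the constitutive form, had 856.2, 870.0 and 858.0 CPM in knockdown libraries and 813.1, 794.7 and 862.4 CPM in control libraries. Both overlapped between the groups, with log2 fold changes of −0.056 (95% interval −0.146 to 0.034, adjusted p in edgeR = 0.35) for HSP90AA1 and 0.066 (95% interval −0.026 to 0.157, adjusted p in edgeR = 0.272) for HSP90AB1. HSP90AB1 passed as higher without control replicate 3 (adjusted p of 0.0343).

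The cytosolic HSP70 genes did not pass. HSPA8 had 727.1, 741.1 and 704.4 CPM in knockdown libraries and 761.7, 755.2 and 728.7 CPM in control libraries, with a log2 fold change of −0.048 (95% interval −0.138 to 0.041, adjusted p in edgeR = 0.423). The heat-inducible HSPA1A averaged 10.4 ± 0.819 CPM in knockdown and 11.8 ± 1.77 CPM in control (SD, n = 3 each), and its near-identical neighbour HSPA1B 30.9 ± 1.21 and 30.8 ± 3.94 CPM in knockdown and control. Reads of this pair can be split between them, and 36.5% of the exon bases of HSPA1B are shared with another gene on the same strand, so each level is uncertain. The log2 fold change of HSPA1B was 0.01, and it turned to −0.014 without knockdown replicate 2, −0.059 without control replicate 1 and −0.024 without control replicate 3. HSPA6, a strictly heat-induced HSP70, had 5 counts over the 3 knockdown libraries and 5 over the 3 control libraries. Levels per exon base, computed as TPM (transcripts-per-million), divide by all annotated exons of a gene combined, 2980 bases for HSP90AB1 and 5248 for HSP90AA1. They put the cytosolic HSP90AB1 first at 1412 ± 9.74 TPM in knockdown and 1348 ± 47.3 TPM in control. By CPM, HSP90AA1 was above HSP90AB1 (mean of all libraries 869.1 against 842.4 CPM), so their order depends on these lengths. Next came HSP90AA1 at 793.4 ± 7.475 and 823.6 ± 27.1 TPM, HSPA8 at 729.6 ± 15.5 and 753.3 ± 24.1 TPM, HSP90B1 at 701.6 ± 6.59 and 690.7 ± 21.0 TPM and HSPA5 at 652.4 ± 13.3 and 612.1 ± 14.7 TPM in knockdown and control (SD, n = 3 each).

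**Figure D2:**
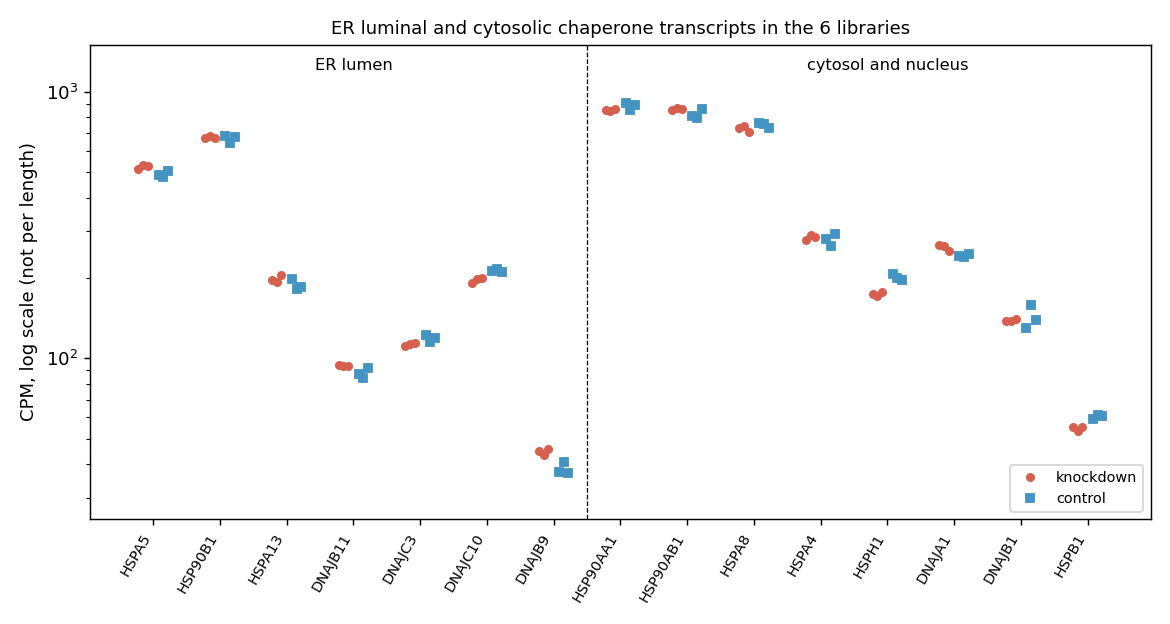
CPM on a log axis, not divided by gene length, in each of the 3 knockdown libraries (circles) and 3 control libraries (squares) for 7 ER luminal genes and 8 cytosolic and nuclear genes. The circles and squares of HSPA5, HSP90B1, HSP90AA1, HSP90AB1 and HSPA8 lie close together, and HSPH1 at 171.1 to 177.1 CPM in knockdown lies below 196.3 to 207.8 CPM in control.

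Of the 3 HSP110 genes, 2 fell and 1 did not pass (66.7% called, against 33.3% of all tested genes). HSPA4L (APG-1) had 37.1, 34.6 and 39.0 CPM in knockdown libraries and 51.45, 49.6 and 42.7 CPM in control libraries. All 3 knockdown libraries lay below the control libraries, among which replicate 3 was lowest, and HSPA4L fell by 0.39 on the log2 scale (SE 0.0707, adjusted p in edgeR = 7.06e-05). HSPH1 (HSP105) had 173.5, 171.1 and 177.1 CPM in knockdown libraries and 207.8, 200.2 and 196.3 CPM in control libraries. The groups did not overlap, and HSPH1 fell by 0.21 on the log2 scale (SE 0.043, adjusted p in edgeR = 0.00025). HSPA4 (APG-2), the third gene of the class, had 278.7, 291.0 and 285.3 CPM in knockdown libraries and 279.0, 263.5 and 292.8 CPM in control libraries, which overlapped (log2 fold change 0.035, 95% interval −0.057 to 0.126, adjusted p in edgeR = 0.589). The calls of HSPA4L and HSPH1 held in all 15 other analyses.

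In the cytosol and nucleus 5 of 31 tested genes fell, where 18.1% of all tested genes were called lower. Besides HSPA4L and HSPH1, these were the J protein genes DNAJC8, DNAJC24 and DNAJC9. DNAJC8, a nuclear protein associated with splicing, had 116.6, 106.7 and 113.2 CPM in knockdown libraries and 143.3, 141.4 and 142.1 CPM in control libraries. The control libraries lay within 2 CPM of each other and above every knockdown library, and DNAJC8 fell by 0.34 on the log2 scale (SE 0.0451, adjusted p in edgeR = 5.65e-07), a call that held in all 15 other analyses. DNAJC24 (DPH4), which takes part in the synthesis of diphthamide, had 26.6, 27.6 and 27.2 CPM in knockdown libraries and 33.8, 33.6 and 29.6 CPM in control libraries. It fell by 0.27 on the log2 scale (SE 0.0774, adjusted p in edgeR = 0.00864), and it no longer passed without control replicate 1 (adjusted p of 0.0602) and in DESeq2 (adjusted p of 0.0812). DNAJC9, a histone chaperone, averaged 81.6 ± 5.12 CPM in knockdown and 90.7 ± 1.198 CPM in control (SD, n = 3 each; log2 fold change −0.16, adjusted p in edgeR = 0.0165). It no longer passed without knockdown replicate 1 (adjusted p of 0.0931), knockdown replicate 3 (adjusted p of 0.0745) or control replicate 1 (adjusted p of 0.0536) and in DESeq2 (adjusted p of 0.112), and 28.6% of its exon bases are also exon bases of DNAJC9-AS1 or FAM149B1 on the other strand.

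Of the 31 tested genes of the cytosol and nucleus 2 rose, where 15.3% of all tested genes were called higher. Both, DNAJB2 and DNAJA2, encode J proteins. DNAJB2, known in neurons for bringing ubiquitinated clients to the proteasome, had 70.2, 74.7 and 74.8 CPM in knockdown libraries and 58.9, 66.4 and 64.9 CPM in control libraries. The groups did not overlap, and DNAJB2 rose by 0.22 on the log2 scale (SE 0.0554, adjusted p in edgeR = 0.00302). It no longer passed without control replicate 1 (adjusted p of 0.0501). DNAJA2 had 126.3, 126.6 and 121.9 CPM in knockdown libraries and 117.1, 117.0 and 104.1 CPM in control libraries, with control replicate 3 apart from the others. It rose by 0.14 on the log2 scale (SE 0.0479, adjusted p in edgeR = 0.023), and it no longer passed without knockdown replicate 1 (adjusted p of 0.0569), knockdown replicate 2 (adjusted p of 0.0827) or control replicate 3 (adjusted p of 0.129) and in DESeq2 (adjusted p of 0.0864).

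DNAJA1, the other abundant class A protein, averaged 260.6 ± 8.05 CPM in knockdown and 242.8 ± 3.59 CPM in control (SD, n = 3 each), and did not pass (log2 fold change 0.10, adjusted p in edgeR = 0.0642). It passed as higher with upper-quartile scaling (adjusted p of 0.0315), library-size scaling (adjusted p of 0.0137) and a block for the replicate number (adjusted p of 0.0289), and without knockdown replicate 3 (adjusted p of 0.0333) or control replicate 3 (adjusted p of 0.0438). DNAJB1, the main heat-inducible J protein, had 138.0, 137.5 and 140.6 CPM in knockdown libraries and 130.1, 158.5 and 138.6 CPM in control libraries. Control replicate 2 stood above the rest, and the log2 fold change was −0.033 (95% interval −0.142 to 0.075, adjusted p in edgeR = 0.665), or 0.054 without control replicate 2. The small heat shock protein HSPB1 (HSP27) had 55.2, 53.3 and 55.2 CPM in knockdown libraries and 59.0, 61.0 and 60.5 CPM in control libraries, which did not overlap. Its log2 fold change of −0.14 was at the threshold (adjusted p in edgeR = 0.0522, or 0.035 with the replicate number as a block).

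**Figure D3:**
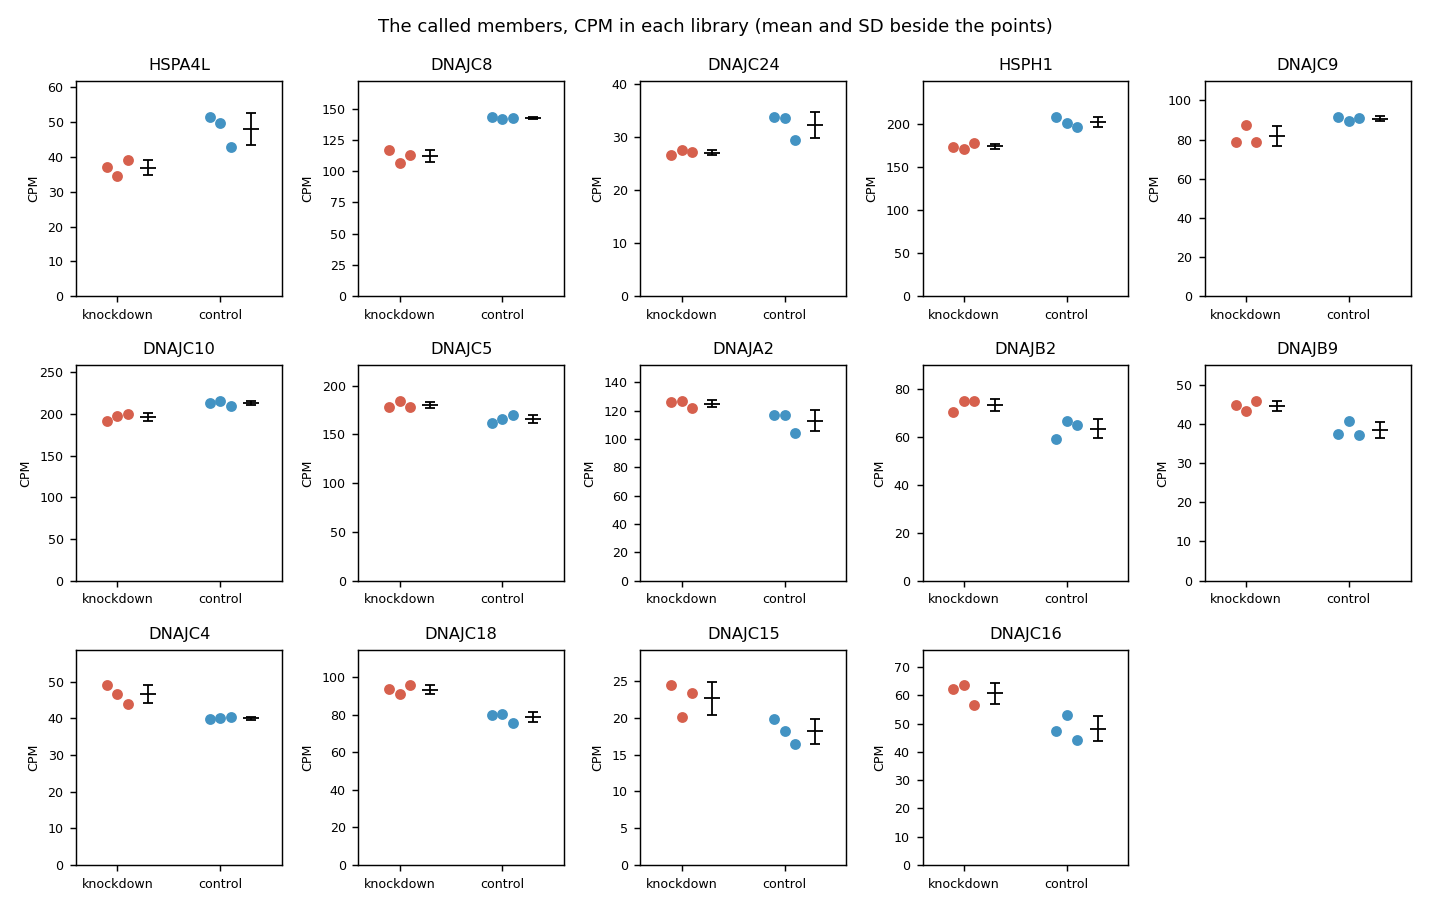
CPM of the 14 called genes in each library, with knockdown left of control, an axis from 0, and the mean and SD beside the points, ordered by log2 fold change from HSPA4L (−0.39) to DNAJC16 (0.33). In each of the 14 panels every knockdown point lies on the same side of every control point, and each difference is under 1.5-fold.

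At vesicles and endosomes, DNAJC5 (cysteine string protein), which keeps SNARE proteins folded at vesicles, averaged 180.5 ± 3.23 CPM in knockdown and 165.8 ± 4.29 CPM in control (SD, n = 3 each). It rose by 0.12 on the log2 scale (SE 0.043, adjusted p in edgeR = 0.0253), and it no longer passed without knockdown replicate 2 (adjusted p of 0.118), control replicate 1 (adjusted p of 0.114) or control replicate 2 (adjusted p of 0.0619) and in DESeq2 (adjusted p of 0.0732). DNAJC13 (RME-8), an endosomal J protein that binds the WASH complex and the sorting nexin SNX1, had 138.7, 136.1 and 151.0 CPM in knockdown libraries and 151.0, 144.9 and 153.8 CPM in control libraries. These overlapped, with a log2 fold change of −0.077 (95% interval −0.172 to 0.018, adjusted p in edgeR = 0.21). DNAJC6 (auxilin), which uncoats clathrin vesicles with HSPA8, had 10 counts over the knockdown libraries and 6 over the control libraries and was not tested.

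In mitochondria, 1 of 8 tested genes rose and 7 did not pass (median log2 fold change 0.088). DNAJC15 (MCJ), a J protein of the inner membrane known for restraining respiration, had 24.4, 20.1 and 23.35 CPM in knockdown libraries and 19.9, 18.2 and 16.4 CPM in control libraries. Knockdown replicate 2 and control replicate 1 nearly touched, and DNAJC15 rose by 0.31 on the log2 scale (SE 0.098, adjusted p in edgeR = 0.0162). It no longer passed without knockdown replicate 1 (adjusted p of 0.0859) or control replicate 3 (adjusted p of 0.0651) and in DESeq2 (adjusted p of 0.0865). HSPA9 (mortalin), the mitochondrial HSP70 of protein import, had 323.1, 328.2 and 342.6 CPM in knockdown libraries and 309.8, 300.9 and 316.1 CPM in control libraries, which did not overlap (log2 fold change 0.10, 95% interval 0.013 to 0.19, adjusted p in edgeR = 0.0687). HSPA9 passed as higher with upper-quartile scaling (adjusted p of 0.0308), library-size scaling (adjusted p of 0.0118) and the replicate block (adjusted p of 0.0333), and without control replicate 3 (adjusted p of 0.031). The chaperonin genes HSPD1 (HSP60) and HSPE1 (HSP10), which share a promoter, had log2 fold changes of −0.034 (95% interval −0.12 to 0.053) and −0.016 (95% interval −0.153 to 0.122), where that of HSPE1 turned to 0.005 with library-size scaling, 0.068 without knockdown replicate 3 and 0.014 without control replicate 1. GENCODE v29 names 17 pseudogenes after HSPD1, 26 after HSPE1 and 17 after HSPA8, so counts of these genes are uncertain where reads match several copies. HSPE1 also shares 14.2% of its exon bases with HSPD1 on the other strand and 9.7% with HSPE1-MOB4 on the same strand.

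Of the 14 genes given no compartment, 6 were tested and 1 rose (16.7% called, against 33.3% of all tested genes). DNAJC4 had 49.0, 46.7 and 44.0 CPM in knockdown libraries and 39.7, 40.0 and 40.4 CPM in control libraries, with a log2 fold change of 0.22 (SE 0.0638, adjusted p in edgeR = 0.00834). It no longer passed without knockdown replicate 1 (adjusted p of 0.0563) and in DESeq2 (adjusted p of 0.0735), and 10.6% of its exon bases are shared with NUDT22 on the same strand. The 19 genes of the family that were not tested had at most 16 counts over the 6 libraries, and 7 of them had none. They include the testis gene DNAJB8, the muscle genes HSPB3 and HSPB7, and the pseudogenes HSPA7 and HSP90B2P. DNAJA4 was also listed at 0 in all 6 libraries.

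The 8 ER luminal genes summed to 1882, 1922 and 1921 CPM in knockdown libraries and 1893, 1822 and 1890 CPM in control libraries, which overlapped. The 39 cytosolic and nuclear genes summed to 4534, 4579 and 4502 CPM in knockdown libraries and 4615, 4558 and 4604 CPM in control libraries, which also overlapped. The ratio of the sums of counts, which no scaling changes, was 0.415, 0.42 and 0.427 in knockdown libraries and 0.41, 0.4 and 0.41 in control libraries, so that the groups did not overlap but differed by 1.03-fold. HSPA5 stood to HSPA8 at 0.702, 0.714 and 0.747 in knockdown libraries and 0.642, 0.631 and 0.694 in control libraries. HSP90B1 stood to HSP90AB1 at 0.782, 0.786 and 0.781 in knockdown libraries and 0.835, 0.808 and 0.781 in control libraries. The ER member of the HSP70 pair was thus relatively higher in every knockdown library, and the ratio of the HSP90 pair overlapped.

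Within the cytosol, HSP90AA1 stood to HSP90AB1 at 0.993, 0.976 and 0.999 in knockdown libraries and 1.12, 1.08 and 1.04 in control libraries, with no overlap. HSPH1 stood to HSPA4 at 0.6225, 0.588 and 0.621 in knockdown libraries and 0.745, 0.76 and 0.67 in control libraries. HSPA4L stood to HSPA4 at 0.133, 0.119 and 0.137 in knockdown libraries and 0.184, 0.188 and 0.146 in control libraries. In both HSP110 ratios the knockdown libraries were below the control libraries, and control replicate 3 was the control library nearest to them. These pairs were chosen after the values were seen and are described without a test.

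**Figure D4:**
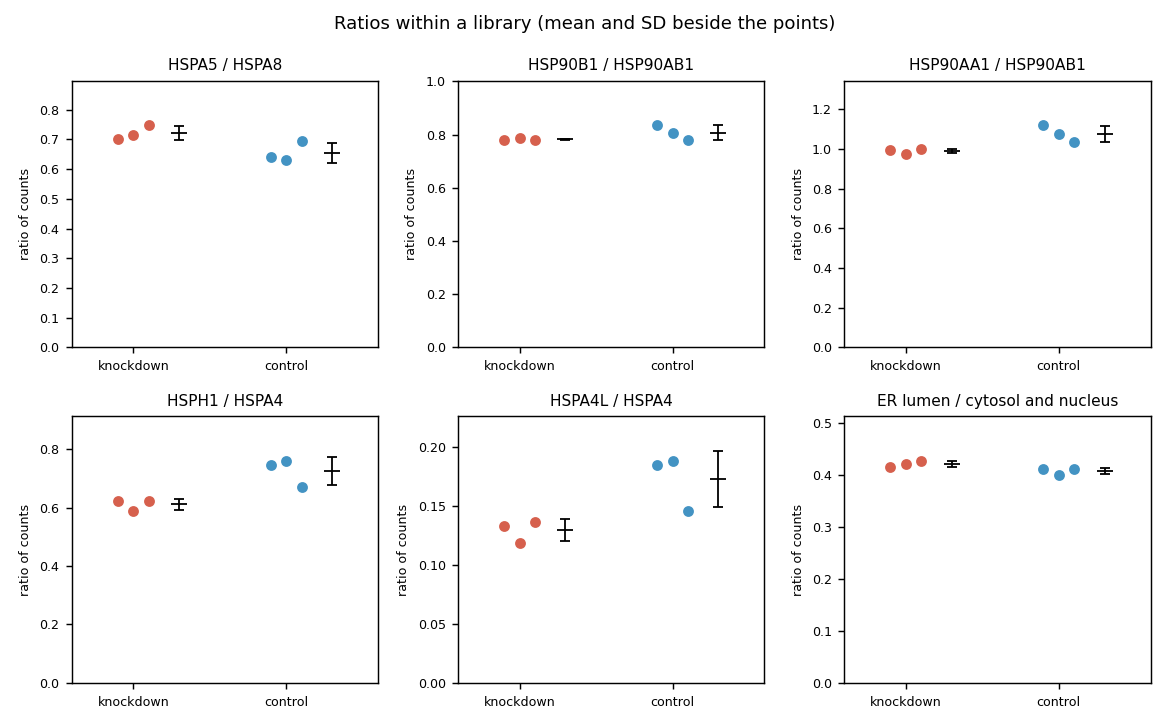
Ratios of counts within each library, with knockdown left of control, an axis from 0, and the mean and SD beside the points. The HSPA5 to HSPA8 ratio is higher in all 3 knockdown libraries, the HSP90AA1 to HSP90AB1 ratio and both ratios to HSPA4 are lower in all 3, and the HSP90B1 to HSP90AB1 ratio overlaps.

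Genes outside the family that work with these chaperones are given by list, beside the 33.3% called of all tested genes (15.3% higher, 18.1% lower), and no list had a larger share called. Of 24 ER folding and unfolded protein response genes, 5 rose, 2 fell and 17 did not pass, which is 29.2% called (median log2 fold change 0.053). TRIB3, a pseudokinase induced by ATF4 and DDIT3, averaged 43.15 ± 9.41 CPM in knockdown and 28.1 ± 0.673 CPM in control (SD, n = 3 each; log2 fold change 0.63, adjusted p in edgeR = 9.29e-06), with knockdown replicate 3 above the other knockdown libraries at 54.0 CPM. ATF6, a sensor of the unfolded protein response, averaged 135.8 ± 4.90 CPM in knockdown and 116.5 ± 2.07 CPM in control (log2 fold change 0.22, adjusted p in edgeR = 0.000234). HERPUD1, of ER-associated degradation, rose by 0.18 on the log2 scale, while EDEM1, which marks glycoproteins for it, fell by 0.25 on the log2 scale. The other genes that changed, added once their values were known, were DDIT3 (0.30) and CANX (0.11), which rose, and the J protein SEC63 (−0.15), which fell. HYOU1, the HSP110 of the ER, had a log2 fold change of −0.008 (adjusted p in edgeR = 0.914) and was likewise added once its values were known.

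Of 25 tested cytosolic co-chaperone and heat shock factor genes, 2 rose, 4 fell and 19 did not pass, which is 24.0% called (median log2 fold change 0.035). FKBP4 (FKBP52), an HSP90 co-chaperone of steroid receptors, averaged 86.0 ± 2.61 CPM in knockdown and 120.9 ± 2.37 CPM in control (SD, n = 3 each; log2 fold change −0.49, adjusted p in edgeR = 6.07e-10). BAG3, a nucleotide exchange factor of HSP70 in autophagy, averaged 102.7 ± 2.25 CPM in knockdown and 81.9 ± 3.31 CPM in control (log2 fold change 0.33, adjusted p in edgeR = 2.87e-06). SERPINH1 (HSP47), a heat-inducible collagen chaperone that fell by 0.24 on the log2 scale, was listed here but resides in the ER. Counted with the ER genes, a choice made after seeing the data, it gives 5 higher and 3 lower of 25 ER genes and 2 higher and 3 lower of 24 cytosolic genes. Added once their values were known were TTC4 (0.18), which rose, and FKBP5 (−0.20), which fell. Of 13 heat shock factor 1 targets inside the family, 12 were tested, 2 fell, HSPH1 and HSPA4L, and 10 did not pass (median log2 fold change −0.041). HSF1 itself had a log2 fold change of 0.043 (95% interval −0.065 to 0.151, adjusted p in edgeR = 0.567) and was added to the named genes once its values were known.

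Of 9 tested mitochondrial chaperone and protease genes, 2 rose and 1 fell, with a median log2 fold change of 0.06. CLPB (SKD3), a disaggregase of the space between the mitochondrial membranes, averaged 20.2 ± 2.405 CPM in knockdown and 30.6 ± 1.39 CPM in control (SD, n = 3 each; log2 fold change −0.59, adjusted p in edgeR = 5.1e-06). TIMM44, which anchors HSPA9 at the import channel, rose by 0.22 on the log2 scale (adjusted p in edgeR = 0.0142). It no longer passed without knockdown replicate 2 (adjusted p of 0.0603), control replicate 2 (adjusted p of 0.0657) or control replicate 3 (adjusted p of 0.057) and in DESeq2 (adjusted p of 0.0816). GRPEL1, the nucleotide exchange factor of HSPA9, had a log2 fold change of 0.19 (adjusted p in edgeR = 0.0442), a call lost in 5 of 6 analyses that leave out a library (adjusted p up to 0.276) and in DESeq2 (adjusted p of 0.193).

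A 7-base word, TCATCCA, was singled out earlier in these same libraries because genes with it in the 3′ UTR were lower in knockdown, so its values here support nothing independent. It lay in the 3′ UTR of 4 of the 60 tested genes (6.67%), where 12.0% of 12056 tested genes with an annotated 3′ UTR held it. The longest annotated 3′ UTR of each gene was searched, and whether these cells use it was not tested. Over all tested genes, the median 3′ UTR was 3324 bases with the word and 1310 bases without it, so the word goes with long 3′ UTRs. The sites are shown with the word in capitals, as bases of the transcript 5′ to 3′ (GENCODE v29, GRCh38), on chromosome 1 for DNAJC8, 5 for DNAJC18 and HSPA9 and 2 for DNAJC10.
DNAJC8: gtttgtggaaaTCATCCAattaaacatac
DNAJC10: agtttgccgtaTCATCCAggaaaacctga
DNAJC18: atctggccaccTCATCCActacatctgga
HSPA9: aatgaaggtagTCATCCAtagacttgaaa
DNAJC8 and DNAJC10 fell, DNAJC18 rose and HSPA9 did not pass, as given above. DNAJC10 held a second site in its 3′ UTR of 17332 bases. The other 4 genes of the family that fell, HSPA4L, HSPH1, DNAJC24 and DNAJC9, did not hold the word. A match is a description of these letters, and binding there was not measured.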

How the data were processed

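RNA of 6 AF22 libraries was sequenced after DNase treatment and a directional library kit, per the labels' protocols. The authors deposited 1 table of read counts per library, as whole numbers per gene symbol that were not normalised. Reads were handled with STAR 2.7.10a, Trim Galore 0.6.6 and bedtools on hg38, per the submitters' processing notes, which give no roles. How reads were assigned to genes, with which annotation and whether by strand, is not given in the sources used here. Libraries were grouped by their titles, 3 per group.

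Counts were filtered with filterByExpr, which kept 13632 genes with 99.858% to 99.869% of the counts, and scaled by TMM (factors 0.9797 to 1.0151). Knockdown was compared with control by the quasi-likelihood test of edgeR 4.0.16 (R 4.3.3) without covariates, with p-values adjusted over all tested genes and a threshold of 0.05. The standard error is the log2 fold change divided by the square root of F, and 95% intervals use its degrees of freedom and are not adjusted for the number of genes. CPM use the TMM-adjusted library size. A gene at 0 allows up to 0.259 to 0.411 CPM in a library (3 counts, counting error only). TPM use the combined length of all annotated exons of a gene in GENCODE v29, known for 90.1% of symbols. The transcripts that these cells use may be shorter. Promoters are from RefSeq (GRCh38.p14).

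The 79 genes, the compartments and the lists were chosen with earlier results of these data known. The text names every called gene of the family, 19 core chaperones and, per outside list, up to 4 called genes with the smallest p, with added genes marked as such. Some genes counted in the lists are not reported here by name. The 15 other analyses were 3 other scalings (library size, upper quartile, RLE), 2 other filters (1 CPM in 3 libraries, or none), DESeq2 1.42.0, limma-voom (limma 3.58.1), a block for replicate number, HSPA1A and HSPA1B summed, and each library left out in turn. The test was also run on simulated counts of 13632 genes, of which far fewer were changed than were called in the data. It recovered 68% of genes changed 1.2-fold, 84% at 1.5-fold, 94% at 2-fold and 98% at 4-fold, with 9 false calls. The adjusted p depends on how many genes change, so these rates may not hold for the data. A gene that did not pass may still have changed by 1.2-fold or more where its interval allows it. No pair of replicates agreed within sampling noise (chi-square per degree of freedom 1.248 to 2.055), so each library was counted once. Figures used Python 3.11.15 with Matplotlib 3.10.9.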

Additional observations from a re-analysis of the deposited data

How the results depend on the processing

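Of 629 values recomputed for 42 named genes, 569 kept their direction and their side of the threshold, 38 lost a call, 14 gained one and 8 changed sign, all 8 in genes that did not pass. HSPA4L, HSPH1, DNAJC8, DNAJC16 and DNAJC18 kept their calls in all 15 analyses. DESeq2 called 3 higher and 3 lower genes of the family, against 8 and 6 in edgeR, with 0 higher and 0 lower in the ER lumen (1 and 1) and 1 higher and 3 lower in the cytosol and nucleus (2 and 5), and it called 2743 of 13400 genes in all, against 4545. Leaving out 1 library gave 5 to 10 higher and 3 to 6 lower genes of the family, 0 to 2 higher and 0 to 1 lower in the ER lumen, and 1 to 3 higher and 3 to 5 lower in the cytosol and nucleus. These analyses called 26.3% to 31.3% of all tested genes, against 33.3% with every library. Library-size scaling gave 2 higher and 0 lower in the ER lumen and 4 higher in the cytosol and nucleus, and upper-quartile scaling 2 higher in the ER lumen. The 2 scalings called 34.4% and 33.9% of all tested genes. No scaling moved the median of all genes by more than 0.0205 on the log2 scale. The cause of these changes was not tested. Leaving out 1 library gave log2 fold changes of −0.001 to 0.036 for HSP90B1, −0.059 to 0.121 for HSPA1B, −0.104 to 0.054 for DNAJB1 and −0.088 to 0.068 for HSPE1, which was 0.005 with library-size scaling.

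With the replicate number as a block the test called 10 higher and 7 lower genes of the family and 5248 of all 13632 tested genes (38.5%). Deviations of same-numbered libraries correlated at 0.079, 0.005 and 0.071, and 4 of 6 libraries correlated best with their own number, so the libraries share a number and the labels give no pairing. Genes at 1 or 2 CPM, such as HSPA12B and HSPB6, have intervals too wide to show a change of the size of the called ones.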
